A study of Mus musculus with 48 samples.

Results

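In hippocampal CA tissue, 7 genes whose transcripts are enriched in the thalamus were followed through RNA-sequencing, because thalamic tissue lies close to the hippocampus and could be carried over in a dissection. The 7 genes (Prkcd, Tcf7l2, Lef1, Zic1, Slc17a6, Ramp3 and Tnnt1) were taken by symbol from the 24421 genes of the count table, and all 7 were found and passed the filter on low counts in every comparison. The libraries came from 48 male mice with a labelled age of 8 weeks, and each library was 1 mouse. All mice were bred from a floxed CB1 cannabinoid receptor allele (CB1f/f). In the Glu-CB1 line (nex-cre x CB1f/f), Cre under regulatory elements of nex1 deletes CB1 in dorsal telencephalic glutamatergic neurons, and in the GABA-CB1 line (dlx5/6-cre x CB1f/f), Cre under those of dlx5/6 deletes it in forebrain GABAergic neurons. Each KO group had CB1-WT littermates as controls, and mice were taken either in the basal condition or after open field exposure, a short free exploration of an unfamiliar white box. Libraries numbered 5 for Glu-CB1-WT basal, 7 for Glu-CB1-KO basal, 5 for Glu-CB1-WT open field, 7 for Glu-CB1-KO open field, 6 for GABA-CB1-WT basal, 6 for GABA-CB1-KO basal, 7 for GABA-CB1-WT open field and 5 for GABA-CB1-KO open field. The tissue was bulk tissue left after removal of the dentate gyrus, so fewer cells of a type and less RNA per cell cannot be told apart.

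The thalamus relays sensory and motor signals to the cortex through excitatory neurons that load glutamate into vesicles with VGLUT2, whereas pyramidal cells of the CA fields use mainly VGLUT1. Thalamic relay neurons keep the transcription factors Tcf7l2 and Lef1 into adulthood, and both act in the nucleus with beta-catenin at the end of the canonical Wnt pathway. Prkcd, the delta isoform of protein kinase C, is a kinase activated by diacylglycerol and is strongly expressed in many thalamic nuclei, but none of the 7 genes belongs to the thalamus alone.

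Reads assigned to genes numbered 25892654 to 34091080 per library (median 30975561). Cnr1, the gene of CB1, lay between 311 and 412 CPM (counts scaled to the size of the library) in CB1-WT libraries and between 100.3 and 249 CPM in KO libraries, so every library matched its genotype label. The libraries also fell apart in a way that line, genotype and state do not explain. Xkr4 was at or under 13.6 CPM in 17 libraries and at or above 19.5 CPM in the other 31. The first principal component, with 17.5% of the variance of 500 genes, went mostly with this split, though both sides overlapped on it. It went in large part with sets A to E, which are runs of nearby animal numbers. The labels carry the animal numbers but not the sets, which were formed here from them. In the Glu-CB1 line the low side held all libraries of set C and otherwise only Glu-CB1-KO open field replicate 7, of set E. In the GABA-CB1 line it held part of set A and none of set B. The split crossed all groups unevenly, with 5 of 7 Glu-CB1-KO and 2 of 5 Glu-CB1-WT open field libraries on the low side. The genotype differences of Prkcd, Slc17a6 and the called genes after the open field are therefore also given for the libraries with Xkr4 at or above 15 CPM.

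Levels were scaled by TMM to CPM and, between genes, divided by exon length in kb. Prkcd was the most abundant of the 7 genes at 14.03 CPM per kb, followed by Slc17a6 at 2.46, Ramp3 at 2.20, Zic1 at 1.65, Lef1 at 1.25, Tnnt1 at 1.16 and Tcf7l2 at 1.07 CPM per kb (means over 48 libraries). The other 6 genes therefore stood within a narrow band of low levels, and Prkcd stood apart from them. Of a wider list of 20 thalamus-enriched genes, 19 passed the filter over the 48 libraries, and the summed level of the list stayed between 284 and 341 CPM in all libraries. The levels within the list ran from very low to moderate. Gbx2, a transcription factor of thalamic precursors, had a median of 0.0648 CPM and did not pass the filter, and Shox2 had a median of 0.249 CPM, whereas Slitrk6 stood at 2.11, Rgs16 at 6.90, Lhx9 at 22.9 and Ntng1 at 34.8 CPM. Most of the sum came from genes such as Cacna1g (median 84.5 CPM), Rora (50.8 CPM) and Plekhg1 (35.9 CPM), which other brain regions also express. The medial habenula borders the thalamus, and 8 of 10 genes of its list passed the filter, with a summed level of the list between 60.2 and 86.6 CPM. Its transcription factor Pou4f1 (median 0.0656 CPM) and Chat (0.0640 CPM), which encodes choline acetyltransferase, did not pass, whereas the neuropeptide gene Tac2 stood at 2.32 CPM, Slc5a7 at 1.13, Gpr151 at 1.04, Lrrc55 at 9.79 and Nwd2 at 54.3 CPM.

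Prkcd lies on the minus strand of chr14:30595354-30626208 (mm10), and its counts are reads on its exons. Its level ran from 24.1 CPM in Glu-CB1-KO basal replicate 1 to 61.7 CPM in GABA-CB1-WT basal replicate 4, a 2.56-fold range. From the highest group mean to the lowest, the order was Glu-CB1-WT open field (46.1 ± 5.05 CPM, SD, n = 5), GABA-CB1-WT basal (44.8 ± 10.7, n = 6), GABA-CB1-KO open field (41.7 ± 4.11, n = 5), GABA-CB1-KO basal (41.6 ± 6.86, n = 6), GABA-CB1-WT open field (40.4 ± 4.01, n = 7), Glu-CB1-WT basal (36.1 ± 6.52, n = 5), Glu-CB1-KO basal (33.002 ± 8.16, n = 7) and Glu-CB1-KO open field (30.9 ± 2.82, n = 7). No gap between neighbours in this order was larger than the larger of their SDs.

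**Figure D1:**
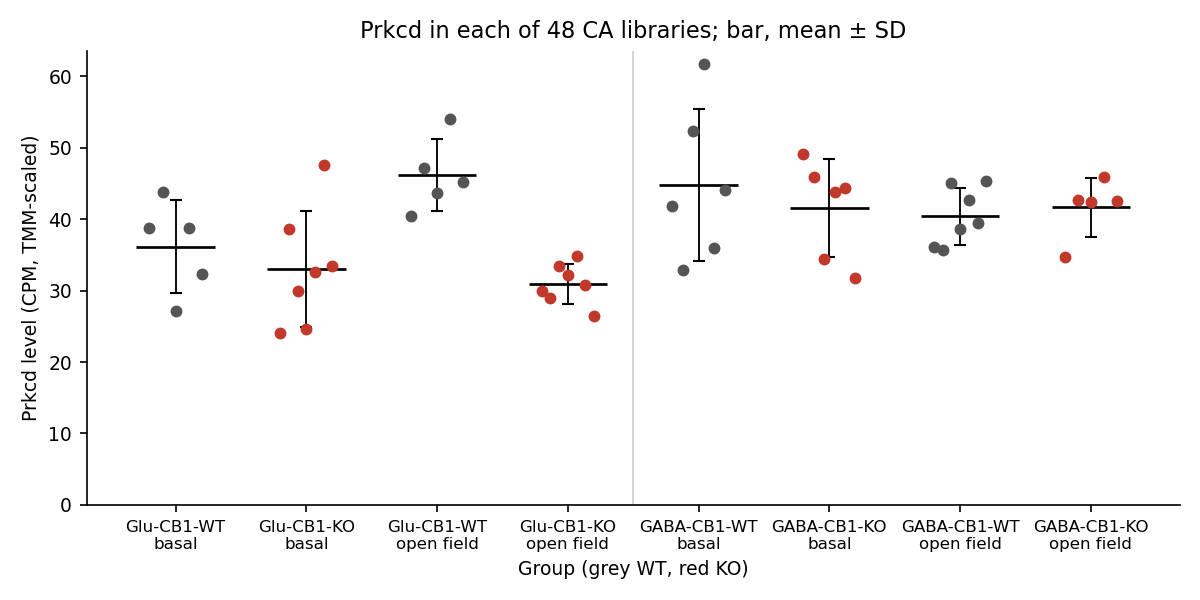
Level of Prkcd (y axis, CPM scaled by TMM) in each of 48 libraries (points), by group (x axis; grey CB1-WT, red KO), with the mean as a line and the SD as a bar. After the open field, the 7 Glu-CB1-KO libraries (26.5 to 34.8 CPM) lie below the 5 Glu-CB1-WT libraries (40.5 to 54.0 CPM), while KO and CB1-WT libraries overlap in the other 3 comparisons.

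After open field exposure, Prkcd was lower in Glu-CB1-KO than in Glu-CB1-WT mice and was the 1 gene of the 7 called between genotypes. The mean was 33.002 CPM in basal and 30.9 CPM in open field KO mice, against 36.1 and 46.1 CPM in CB1-WT mice. The Glu-CB1-WT open field libraries held 40.5, 47.2, 43.7, 54.0 and 45.2 CPM, and the Glu-CB1-KO open field libraries held 26.5 CPM at the lowest, 30.7 CPM at the median and 34.8 CPM at the highest. Every KO library lay below every CB1-WT library. The log2 fold change was -0.58 (SE 0.0737), with an adjusted p of 0.00309 in the quasi-likelihood test of edgeR, adjusted over all genes by Benjamini-Hochberg. The same test called 41 of 15078 genes (0.272%), and libraries of both genotypes did not overlap for 0.743% of genes. Over the 28 pairings of a gene with a KO comparison (7 genes, 4 comparisons of KO with CB1-WT), groups did not overlap in this 1 alone. Over all genes, groups did not overlap for 0.192% in the basal Glu-CB1 line, 0.709% in the basal GABA-CB1 line and, after the open field, 0.987% in the latter.

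Since every KO library lay below every CB1-WT library, the same order had to appear within each set of animal numbers. The levels by set are therefore a description and no further test. The labels carry the animal numbers but do not explain them. In set C, 4 KO libraries held 28.9 to 33.5 CPM and 2 CB1-WT libraries 40.5 and 45.2 CPM. In set D, 2 KO libraries held 30.7 and 34.8 CPM and 1 CB1-WT library 47.2 CPM, and in set E, 1 KO library held 26.5 CPM and 2 CB1-WT libraries 43.7 and 54.0 CPM. Leaving out the libraries low in Xkr4 removed all of set C and left 5 of the 12 libraries, so this fit is not separate from the sets. The log2 fold change was then -0.56, with an adjusted p of 0.195 by edgeR.

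In the other comparisons of KO with CB1-WT, Prkcd did not pass, and 0 of the 7 genes were called by edgeR or by DESeq2, against 0.0198% of all genes in the basal Glu-CB1 line, 0.245% in the basal GABA-CB1 line and, after the open field, 0.0199% in the latter. At an unadjusted p under 0.05 these comparisons held 0, 0 and 2 of the 7 genes, beside 541 of 15138, 1230 of 15082 and 2000 of 15097 genes in all. The log2 fold change of KO against CB1-WT was -0.13 (SE 0.156, adjusted p 0.999) in the basal Glu-CB1 line, -0.11 (SE 0.145, adjusted p 0.859) in the basal GABA-CB1 line and, after the open field, 0.04 (SE 0.0748, adjusted p 0.822) in the latter, all by edgeR with Benjamini-Hochberg adjustment. The genotype effect on Prkcd after the open field differed between lines, by -0.62 on the log2 scale (Glu-CB1 effect minus GABA-CB1 effect, SE 0.112, adjusted p 0.00681 by edgeR), where 0.568% of genes were called. This difference rests in part on the same 12 Glu-CB1 libraries as the effect above. It no longer passed in the fit of all 48 libraries (-0.62, adjusted p 0.151 by edgeR) or in the libraries with Xkr4 at or above 15 CPM (-0.57, adjusted p 0.213). In the basal state the difference between lines was -0.02 (SE 0.230, adjusted p 0.989 by edgeR). The change of the Glu-CB1 genotype effect from the basal state to the open field was -0.44 (SE 0.185, unadjusted p 0.0243, adjusted p 0.99993 by edgeR), so a dependence on the state was not shown. In that comparison edgeR called 0 genes, with 379 at an unadjusted p under 0.05, and neither edgeR nor DESeq2 called any of the 7 genes. For the GABA-CB1 line the change was 0.15 (SE 0.176, adjusted p 0.6995 by edgeR).

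The open field itself did not move Prkcd past the test in either line. Open field against basal, with genotype in the fit, gave a log2 fold change of 0.09 (SE 0.0996, adjusted p 0.758 by edgeR) in mice of the Glu-CB1 line, against -0.08 (SE 0.0871, adjusted p 0.802) in those of the GABA-CB1 line. The shares of all genes called there were 1.80% and 0.963%, and none of the 7 genes was among them.

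**Figure D2:**
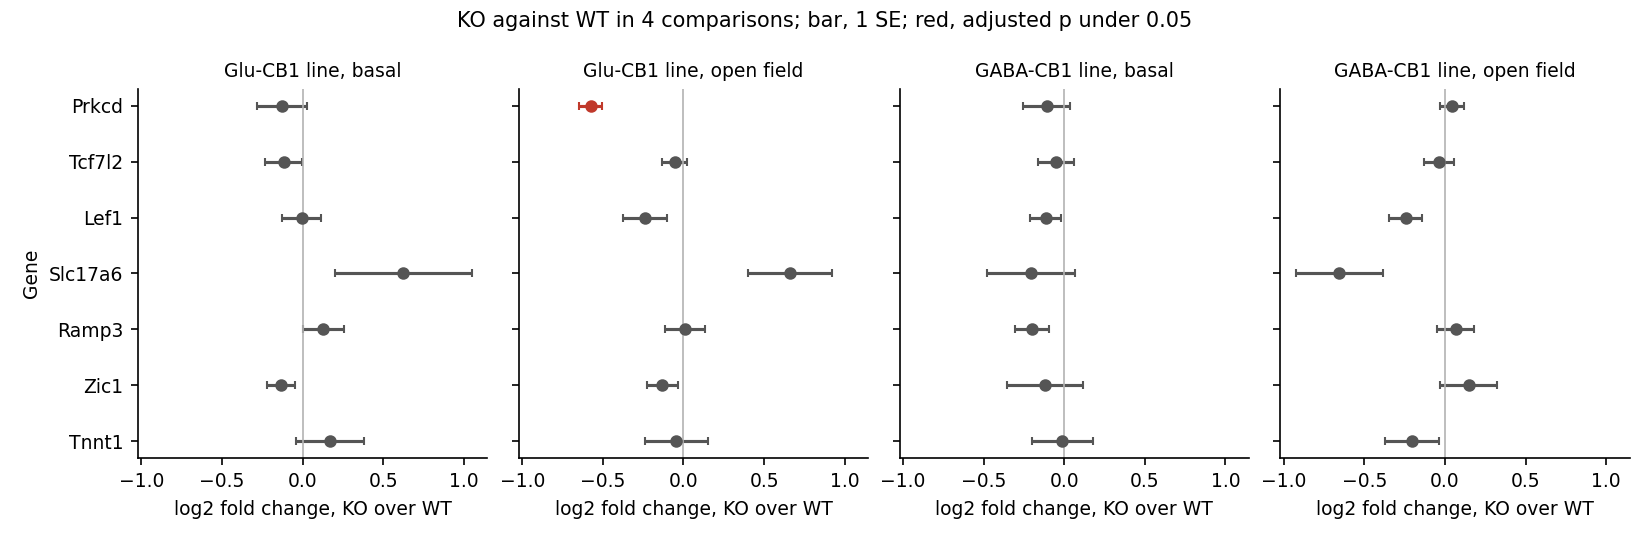
Log2 fold change of KO over CB1-WT (x axis, points with 1 SE) for each of the 7 genes (y axis) in the 4 comparisons of line and state, with adjusted p under 0.05 in red. Prkcd after the open field in the Glu-CB1 line, at -0.58, is the single red point, and Slc17a6 has the widest bars.

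The other kinase genes of the family stood on both sides in the comparison where Prkcd was called. Of 11 genes of protein kinase C and protein kinase D isoforms, 5 stood higher and 6 stood lower in Glu-CB1-KO mice after the open field, with a median log2 fold change of -0.01 and none called. The median over all genes tested was -0.00248. Library by library, with group means removed, Prkcd correlated with the mean of these 11 genes at r = 0.345 (Spearman's rho = 0.277, permutation p 0.0186 and 0.0674). This did not pass after adjustment (adjusted p 0.182 and 0.413). It was 0.299 without the 2 libraries farthest from the median of Prkcd, 0.422 within the Glu-CB1 line and 0.256 within the GABA-CB1 line.

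Genes of the wider thalamic list stood on both sides in the Glu-CB1 line after the open field. Of its 19 tested genes, 7 stood higher and 12 stood lower, as Prkcd did, in Glu-CB1-KO mice (48.4% of all genes were higher). The median log2 fold change was -0.02. In edgeR's test 5 of the 19 had an unadjusted p under 0.05, as had 1051 of all 15078 genes. After adjustment 1 was called, where 0.272% of all genes were called. That gene was Plekhg1 (log2 fold change -0.42, SE 0.0793, adjusted p 0.0424 by edgeR). Its call was lost in 10 of 12 fits that left out 1 library (adjusted p 0.0203 to 0.112), and in the libraries with Xkr4 at or above 15 CPM (-0.50, adjusted p 0.525). Shox2 had a log2 fold change of -1.04 (SE 0.312, adjusted p 0.316) and Calb2, the calcium-binding protein calretinin, of 0.55 (SE 0.229, adjusted p 0.613), and neither passed edgeR's test. The summed level of the list was 288 to 324 CPM in KO and 290.1 to 316 CPM in CB1-WT libraries. With the mean level of this list as a covariate, the log2 fold change of Prkcd was -0.52 (adjusted p 0.0307 by edgeR), and with the mean of the other 6 genes it was -0.56 (adjusted p 0.00502). The mean of the other 6 genes went most closely with Slc17a6, which is part of it (r = 0.799 over the libraries). Carry-over of thalamic tissue was therefore not tested by that covariate.

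Slc17a6 encodes VGLUT2, the vesicular glutamate transporter of thalamic relay neurons and also of subicular and some cortical neurons. It lies on chr7:51621830-51671126 (mm10, plus strand). Its level varied more than that of any other of the 7 genes, from 2.91 CPM in Glu-CB1-WT basal replicate 1 to 20.1 CPM in Glu-CB1-KO basal replicate 3, a 6.90-fold range with a coefficient of variation of 42.5%. Group means were 13.4 ± 5.47 CPM (SD, n = 7) in Glu-CB1-KO basal, 12.6 ± 4.05 (n = 7) in GABA-CB1-WT open field, 12.2 ± 2.95 (n = 7) in Glu-CB1-KO open field, 10.8 ± 4.01 (n = 6) in GABA-CB1-WT basal, 9.35 ± 3.67 (n = 6) in GABA-CB1-KO basal, 8.62 ± 6.39 (n = 5) in Glu-CB1-WT basal, 7.97 ± 3.64 (n = 5) in GABA-CB1-KO open field and 7.75 ± 3.89 (n = 5) in Glu-CB1-WT open field. The libraries of each group spread widely, and no neighbours in this order differed by more than the larger SD.

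After the open field the levels of Slc17a6 in KO and CB1-WT libraries stood in opposite order in the lines. The Glu-CB1-WT libraries held 7.45, 7.68, 13.97, 3.31 and 6.34 CPM, and the Glu-CB1-KO libraries 7.05 CPM at the lowest, 13.7 at the median and 14.8 CPM at the highest. In the GABA-CB1 line, CB1-WT libraries held 7.17, 12.1 and 19.7 CPM at the lowest, median and highest, and the KO libraries 3.97, 9.05, 6.14, 13.6 and 7.11 CPM. The groups overlapped in both lines. The log2 fold changes were 0.66 (SE 0.261, unadjusted p 0.0232, adjusted p 0.576) for the Glu-CB1 line, -0.66 (SE 0.268, unadjusted p 0.0273, adjusted p 0.333) for the GABA-CB1 line, and 1.31 (SE 0.408, unadjusted p 0.00354, adjusted p 0.171) for the difference between lines, none of which passed edgeR's test. In the libraries with Xkr4 at or above 15 CPM they were 0.37 (adjusted p 0.942), -0.58 (adjusted p 0.378) and 0.96 (adjusted p 0.604). In the basal Glu-CB1 line the log2 fold change was 0.63 (SE 0.422, adjusted p 0.999 by edgeR).

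Across the 48 libraries, with the mean of each group removed, Slc17a6 was closely correlated with genes of the subiculum and cortex. Its correlation with the mean of 7 such genes (Nts, Fn1, Tbr1, Rorb, Cux2, Fezf2 and Tshz2) was r = 0.924 (Spearman's rho = 0.890, both with a permutation p of 1e-05, the smallest that the permutations allow, adjusted p 0.00049 and 0.00098 over 98 pairs of a gene and a list). It was 0.902 without the 2 libraries farthest from the median of Slc17a6, 0.946 within the Glu-CB1 line and 0.903 within the GABA-CB1 line. With the wider thalamic list the correlation was r = 0.323 (rho = 0.272, permutation p 0.0442 and 0.0925, adjusted p 0.289 and 0.460). After the open field, 5 of the 7 subiculum and cortex genes were higher in Glu-CB1-KO mice (median log2 fold change 0.14), and Fezf2, a transcription factor of deep-layer cortical neurons, was called (0.33, SE 0.0599, adjusted p 0.0361 by edgeR). The call of Fezf2 was lost in 9 of 12 fits that left out 1 library (adjusted p 0.0183 to 0.112) and in 5 of 11 other settings (adjusted p up to 0.589, in the libraries with Xkr4 at or above 15 CPM). The summed level of these genes was 201 to 247 CPM in the KO libraries and 172 to 234 CPM in their CB1-WT libraries. With their mean as a covariate, the log2 fold change of Slc17a6 in that comparison was 0.00438 (adjusted p 0.998 by edgeR).

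The correlation of Prkcd with the same genes was negative but did not pass after adjustment. With the subiculum and cortex list it was r = -0.474 (rho = -0.405, permutation p 0.00316 and 0.0108, adjusted p 0.0516 and 0.154), -0.384 without the 2 libraries farthest from the median of Prkcd, -0.687 within the Glu-CB1 line and -0.225 within the GABA-CB1 line. The adjusted p of 0.0516 lay close to the threshold, and whether it passed depended on 1 gene that was left out of the list. Its correlation with Slc17a6 was r = -0.442 (rho = -0.326, permutation p 0.00798 and 0.0427, adjusted p 0.0838 and 0.448 over 21 pairs), -0.349 without the 2 farthest libraries, -0.671 within the Glu-CB1 line and -0.122 within the GABA-CB1 line. Glu-CB1-KO basal replicate 6, for example, held 47.5 CPM of Prkcd and 3.79 CPM of Slc17a6, and Glu-CB1-WT basal replicate 3 held 27.1 and 18.3 CPM. With the mean of the 7 subiculum and cortex genes as a covariate, the log2 fold change of Prkcd in Glu-CB1-KO mice after the open field was -0.50 (SE 0.0907), with an adjusted p of 0.135 by edgeR, and so no longer passed, while the difference between lines was -0.70 (SE 0.129, adjusted p 0.0105) and passed.

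**Figure D3:**
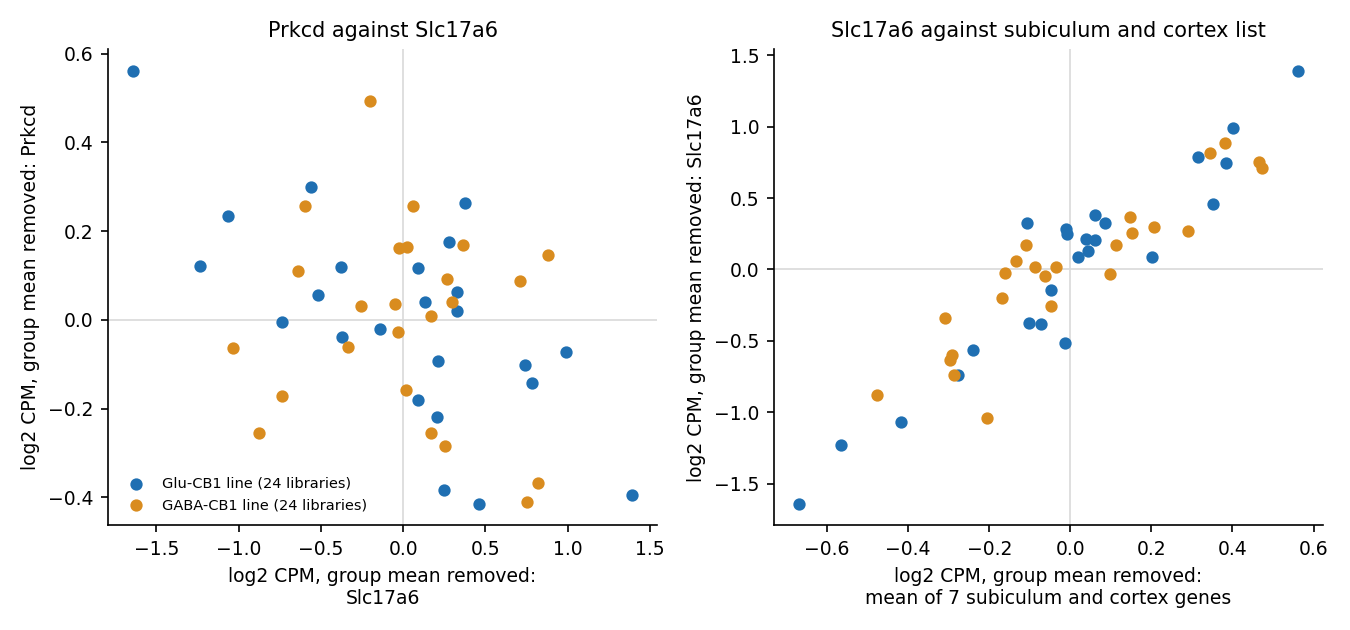
Log2 CPM with the group mean removed, for 48 libraries (points; blue Glu-CB1 line, orange GABA-CB1 line): Prkcd (y axis) against Slc17a6 (x axis) on the left, and Slc17a6 (y axis) against the mean of 7 subiculum and cortex genes (x axis) on the right. The points fall with r = -0.442 on the left and rise with r = 0.924 on the right.

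With the wider thalamic list, Prkcd had a correlation of r = 0.111 (rho = 0.158, permutation p 0.550 and 0.336, adjusted p 0.821 and 0.732), 0.195 without the 2 farthest libraries, -0.172 within the Glu-CB1 line and 0.350 within the GABA-CB1 line. The genes most like Prkcd over the 48 libraries, with group means removed and among 15563 genes, were Cd109 (r = 0.839), Il16 (0.733), Rph3a (0.733), Tmem114 (0.679), Cyp26b1 (0.678), Ccdc3 (0.667), Cpne9 (0.666) and Enc1 (0.659). None of the other 6 thalamic markers came near this range, Zic1 being the highest at r = 0.235. The genes most like the mean of the other 6 were Sema3f (r = 0.788), Lipm (0.787), Tshz2 (0.749), Tekt5 (0.744) and, down to r = 0.698, Rxfp1, Coro6, Nts and Stard10, of which Tshz2 and Nts belong to the subiculum and cortex list. Slc17a6 itself had r = 0.799 with this mean, of which it is a part.

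The transcription factors were low and even. Tcf7l2 (chr19:55741810-55933655, plus strand) ran from 3.85 to 6.76 CPM, with group means from 4.53 ± 0.590 CPM in Glu-CB1-KO basal (SD, n = 7) to 5.38 ± 0.880 CPM in GABA-CB1-WT basal (n = 6). Its log2 fold changes between genotypes ran from -0.12 to -0.04. Open field against basal in the GABA-CB1 line was -0.18 (SE 0.0718, unadjusted p 0.0189, adjusted p 0.279 by edgeR). Lef1 (chr3:131110297-131224357, plus strand) ran from 3.20 to 6.62 CPM, with group means from 4.18 ± 0.788 CPM in Glu-CB1-KO open field (n = 7) to 5.04 ± 0.726 CPM in GABA-CB1-WT open field (n = 7).

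After the open field Lef1 had log2 fold changes of -0.24 (SE 0.104, unadjusted p 0.0330, adjusted p 0.344 by edgeR) in the GABA-CB1 line and of -0.24 (SE 0.138, adjusted p 0.871) in the Glu-CB1 line. Lef1 is also a gene of brain endothelium, where canonical Wnt signals maintain the blood-brain barrier. Its correlation with the mean of 8 endothelial genes was r = 0.533 (rho = 0.575, permutation p 0.00014 and 0.00022, adjusted p 0.00457 and 0.00719), 0.517 without the 2 farthest libraries, 0.765 within the Glu-CB1 line and 0.234 within the GABA-CB1 line. The correlation of Tcf7l2 with Lef1 was low (r = 0.104, rho = 0.111, permutation p 0.521 and 0.487, adjusted p 0.729 and 0.756). Of 16 other genes of the Wnt pathway, 15 were tested after the open field in the Glu-CB1 line, 9 higher and 6 lower in KO mice, with a median log2 fold change of 0.03 and none called. In basal GABA-CB1-KO mice, where 0.245% of all genes were called, 2 of these 15 rose: Rspo1, a secreted agonist of the pathway (1.17, SE 0.183, adjusted p 0.0132), and Lgr5, a receptor of R-spondins (0.64, SE 0.1004, adjusted p 0.0140), both by edgeR. With the replicate number as a block neither passed (adjusted p 0.112 and 0.0884), Rspo1 was also lost in the libraries with Xkr4 at or above 15 CPM (adjusted p 0.111), and Lgr5 was lost in 1 of 12 fits that left out 1 library (adjusted p 0.0532).

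Called genes of the lists in the other comparisons were few. In basal GABA-CB1-KO mice, Lhx9, a LIM homeobox transcription factor of the wider thalamic list, rose by 0.23 on the log2 scale (SE 0.0426, adjusted p 0.0390 by edgeR), a call lost in 10 of 12 fits that left out 1 library (adjusted p up to 0.103). In the same mice Bok, of the CA pyramidal list, fell by 0.52 (SE 0.0664, adjusted p 0.00328), and was called in each of those 12 fits but not with the replicate block (adjusted p 0.0637). Shox2 rose from the basal state to the open field in the Glu-CB1 line (1.09, SE 0.285, adjusted p 0.0441 by edgeR), where 1.80% of all genes were called. Its level was very low (median 0.249 CPM). It lost the call in 15 of 23 fits that left out 1 library (adjusted p up to 0.0824), and kept it in 5 of 10 other settings (adjusted p up to 0.194). The genotype effect differed between lines in the basal state for Lhx9 (-0.51, adjusted p 0.0436), Plekhg1 (-0.45, adjusted p 0.0237) and Rspo1 (-1.39, adjusted p 0.0125), where 0.279% of all genes were called by edgeR. After the open field it differed for Trpc4, a cation channel gene of the striatum, septum and amygdala list (0.33, adjusted p 0.0178), Fezf2 (0.47, adjusted p 0.0383) and Rspo1 (-1.81, adjusted p 0.0126). There edgeR called 0.568% of all genes. None of these 6 differences passed in the libraries with Xkr4 at or above 15 CPM (adjusted p 0.123 to 0.310 by edgeR). In 24 fits that left out 1 library, Lhx9 lost its call in 17, Fezf2 in 11 and Plekhg1 in 2. Trpc4, and Rspo1 in both states, lost it in 0.

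Zic1, a zinc finger transcription factor of thalamus, septum and cerebellum that is also expressed in the meninges, lies on chr9:91360345-91365799 (mm10, minus strand). It lay between 3.62 and 6.68 CPM in all but 3 libraries, all of the GABA-CB1 line. These were GABA-CB1-WT basal replicate 3 (11.6 CPM), GABA-CB1-KO open field replicate 4 (9.42 CPM) and GABA-CB1-KO basal replicate 2 (9.37 CPM). The first and the second of these also had the highest summed levels of a choroid plexus list, 1549 and 4124 CPM, against a median of 74.4 CPM over the 48 libraries. They led the list of meninges and fibroblasts as well, with 192 and 273 CPM against a median of 114 CPM. Zic1 correlated with the choroid plexus list (r = 0.668, rho = 0.461, permutation p 0.00099 and 0.00357, adjusted p 0.0243 and 0.0875), with r = 0.378 without the 2 libraries farthest from its median. With the meninges list it was r = 0.629 (rho = 0.383, permutation p 0.00153 and 0.0158, adjusted p 0.0300 and 0.159) and 0.353 without them. The wider thalamic list gave r = 0.702 (rho = 0.597, permutation p 1e-05 and 0.00013, adjusted p 0.00049 and 0.00637) and 0.591 without them, but it holds the related genes Zic2, Zic4 and Zic5. No genotype comparison moved Zic1 past an unadjusted p of 0.05, with log2 fold changes from -0.13 to 0.15.

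Ramp3 encodes an accessory protein that directs the ligand preference of calcitonin family receptors. It lies on chr11:6658533-6677475 (mm10, plus strand) and held 1.92 to 3.81 CPM, with group means from 2.49 ± 0.393 CPM in Glu-CB1-WT basal (SD, n = 5) to 3.08 ± 0.510 CPM in GABA-CB1-WT basal (n = 6). Open field against basal in the GABA-CB1 line was -0.19 (SE 0.0792, unadjusted p 0.0267, adjusted p 0.324 by edgeR). Among 5 tested genes of its receptor partners, the other RAMPs and the other vesicular glutamate transporters, 4 stood lower and 1 higher in Glu-CB1-KO mice after the open field, with none called. Tnnt1, which encodes slow skeletal muscle troponin T and is a known marker of thalamic neurons, lies on chr7:4504570-4515975 (mm10, minus strand). It was the least abundant of the 7 genes per library, with 15 to 60 reads (0.574 to 1.86 CPM), and its group means lay between 1.00 ± 0.208 CPM in GABA-CB1-KO open field (n = 5) and 1.29 ± 0.334 CPM in GABA-CB1-WT basal (n = 6). At this depth its log2 fold changes between genotypes, from -0.21 to 0.17, had SEs of 0.169 to 0.210.

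**Figure D4:**
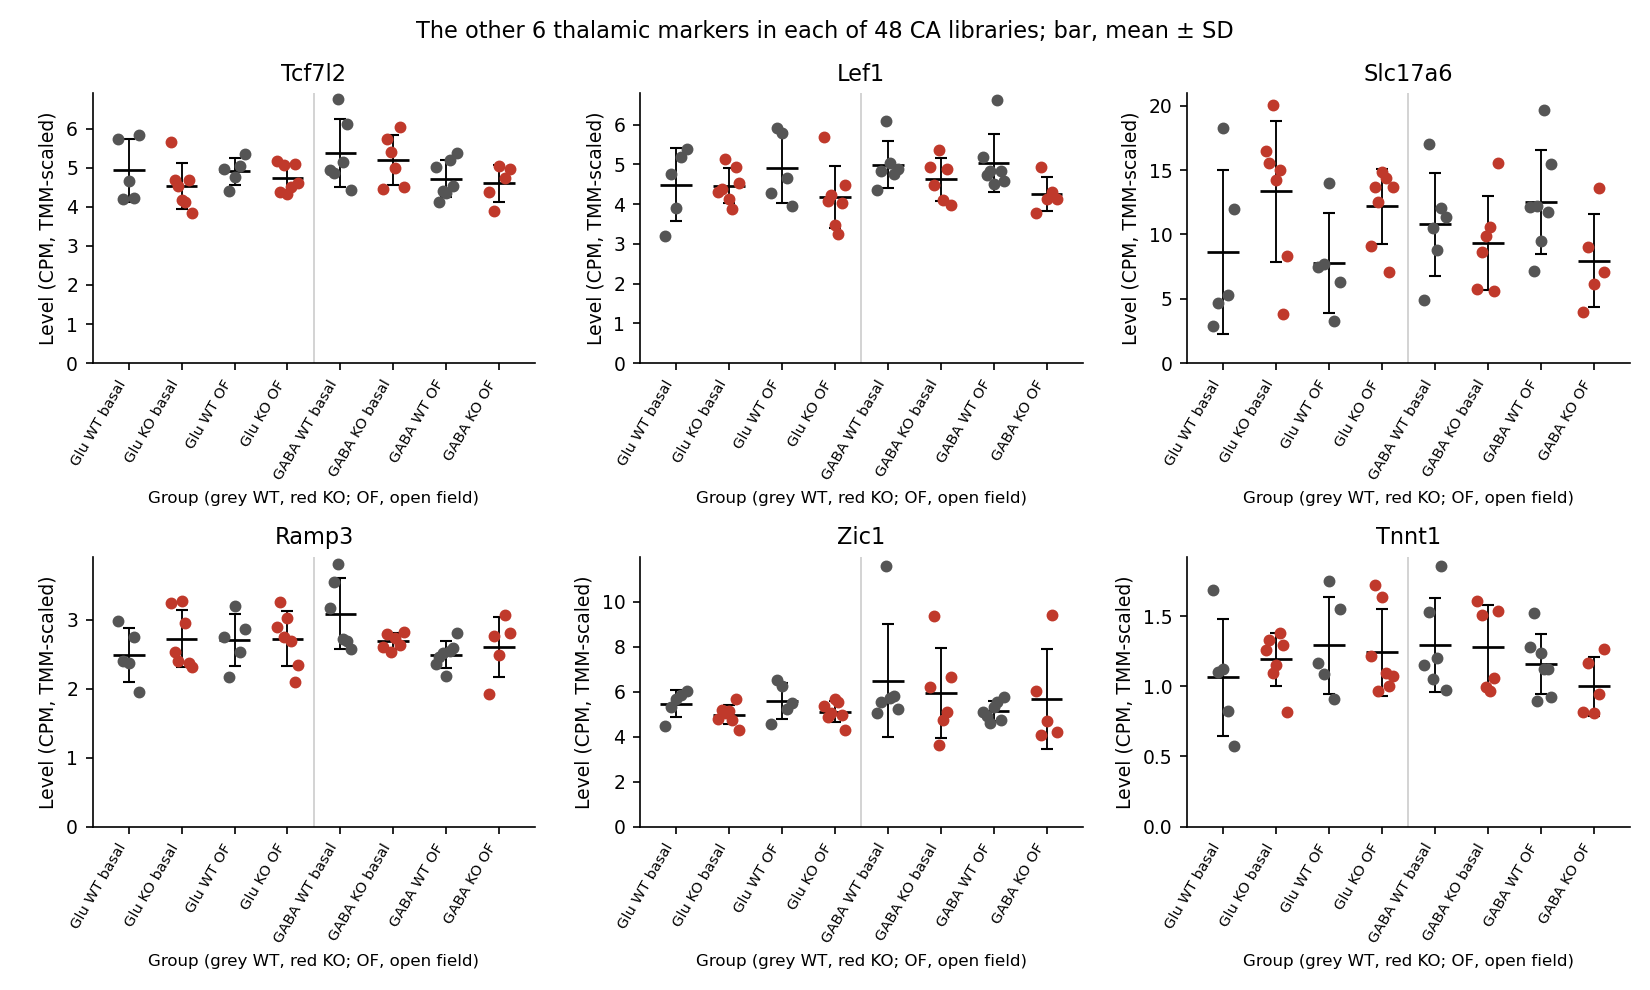
Level (y axes, CPM scaled by TMM) of the other 6 genes in each of 48 libraries (points), by group (x axes; grey CB1-WT, red KO; OF, open field), with mean and SD. KO and CB1-WT libraries overlap for all 6 genes in all 4 comparisons, Slc17a6 spreads from 2.91 to 20.1 CPM, and Zic1 stands high in 3 libraries.

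From library to library, no joint movement of the 7 genes passed the test. Of the 21 pairs, 15 had a positive correlation with group means removed, the median r was 0.104 and no pair passed after adjustment over the 21 pairs (0 of 21 by Pearson's r and by Spearman's rho, permutation test). Among the 6 pairs with Prkcd the median r was -0.00529, and among the 15 without it 0.126. The strongest positive pair was Ramp3 with Tnnt1 (r = 0.439, rho = 0.415, permutation p 0.00511 and 0.00644, adjusted p 0.0838 and 0.135), at 0.408 without the 2 farthest libraries, 0.676 within the Glu-CB1 line and 0.0842 within the GABA-CB1 line. With the first principal component of the 48 libraries removed as well, this correlation was 0.399.

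Markers of other regions and cell types were counted beside Prkcd in the Glu-CB1 line after the open field. All 8 oligodendrocyte genes and all 8 dentate granule cell genes were lower in KO mice (medians -0.11 and -0.06), with none called, and 4 of the former and 0 of the latter had an unadjusted p under 0.05, as had 1051 of all 15078 genes. Of 8 tested medial habenula genes 5 were higher (median 0.03), of 9 choroid plexus genes 6 (0.26), of 10 genes of meninges and fibroblasts 5 (0.02), of 8 endothelial genes 2 (-0.04), of 8 genes of oligodendrocyte precursors 4 (0.01), of 9 genes of striatum, septum and amygdala 6 (0.10) and of 10 CA pyramidal genes 5 (-0.01), with none called. The CA pyramidal genes stood on both sides, with log2 fold changes from -0.20 (Bok) to 0.52 (Coch), and 7 of the 10 had an unadjusted p under 0.05. The summed level of the oligodendrocyte genes was 3460 to 4037 CPM in KO and 3696 to 4222 CPM in CB1-WT libraries. Library by library, with group means removed, Prkcd correlated with the choroid plexus list at r = 0.367 (rho = 0.302, permutation p 0.0230 and 0.0448). With the dentate list it was r = 0.362 (rho = 0.293, permutation p 0.0441 and 0.0632). Neither passed after adjustment (adjusted p of r 0.205 and 0.289). No relation was shown with the medial habenula list (r = -0.0872, permutation p 0.554) or the striatum, septum and amygdala list (r = -0.0163, permutation p 0.913). The part of any of the cells of these lists in the difference of Prkcd was not tested.

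The Prkcd difference in Glu-CB1-KO mice after the open field stayed between -0.62 and -0.50 on the log2 scale in 24 other fits. It passed in 21 of them, all 12 that left out 1 library (adjusted p 0.00219 to 0.0140 by edgeR) and 9 of 12 other settings. It did not pass with the replicate block, the subiculum and cortex covariate or the libraries with Xkr4 at or above 15 CPM (adjusted p 0.135 to 0.195 by edgeR).

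**Figure D5:**
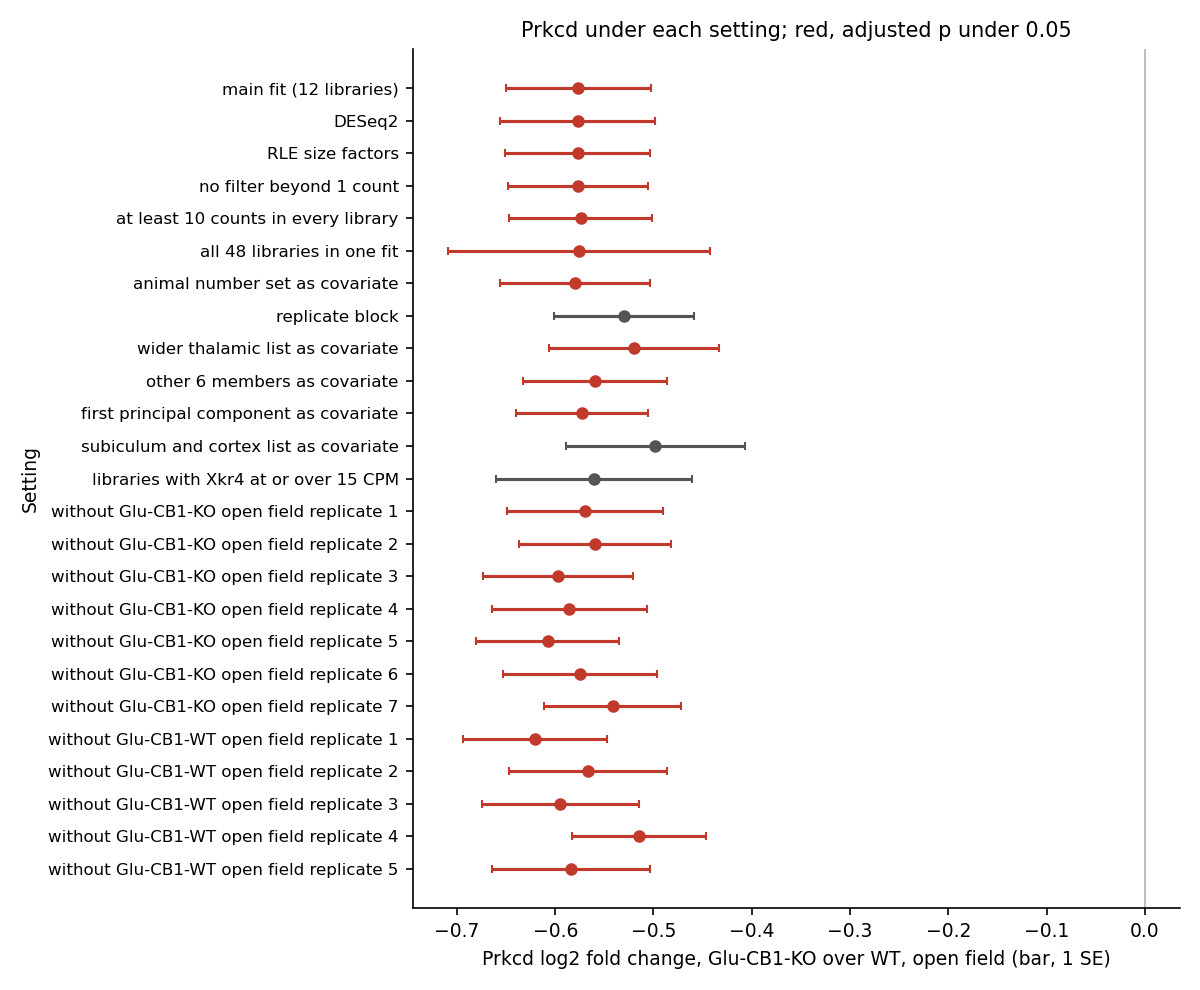
Log2 fold change of Prkcd in Glu-CB1-KO over CB1-WT mice after the open field (x axis, points with 1 SE) under each setting (y axis), with adjusted p under 0.05 in red. All points lie between -0.62 and -0.50, and the 3 grey ones are the replicate block, the subiculum and cortex covariate and the libraries with Xkr4 at or above 15 CPM.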

How the data were processed

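CA tissue of 48 mice was sequenced after amplification with NuGEN's Ovation kits, as single reads. The authors trimmed reads with bbduk, aligned them to mm10 with STAR 2.6.0a and counted them on exons by strand with featureCounts 1.6.2. The deposited values are raw counts, as whole numbers without normalization; no columns were left unused. Groups follow the labels. KO and CB1-WT libraries (12 per comparison) were compared by edgeR 4.0.16's quasi-likelihood test in R 4.3.3, with TMM, filterByExpr and Benjamini-Hochberg adjustment at 0.05. Line and state differences and open field responses used 24 libraries. Correlations used log2 CPM (prior count 2) with group means removed and 100000 permutations within groups. One gene of the subiculum and cortex list is not reported here and was left out of every calculation on that list. The 7 genes and all lists were chosen with earlier results of these data known. Named are the 7 genes, any comparison of theirs with an unadjusted p under 0.05, the 8 genes most like Prkcd or the mean of the other 6, and called list genes in the comparisons described; Calb2, Coch and other list genes given without a call were named after their values were seen. Scripts were tested on simulated data. Alternatives were DESeq2 1.42.0, RLE size factors, other count filters, a fit of 48 libraries, covariates, a replicate block and leaving out each library. The first principal component and the subiculum and cortex list as covariates and the limit on Xkr4 were chosen after seeing the data. P-values measure the spread between mice, and without molecular identifiers counting error sets a floor under it. The sizes of both GABA-CB1 open field groups follow the labels.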

Additional observations from a re-analysis of the deposited data

Results flagged for a closer look

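The genotype effect on Prkcd after the open field differed between the lines (Glu-CB1 effect minus GABA-CB1 effect -0.621 on the log2 scale, adjusted p 0.00681 by edgeR's quasi-likelihood test), a call lost in the fit of all 48 libraries (adjusted p 0.151) and in the libraries with Xkr4 at or above 15 CPM (adjusted p 0.213). Prkcd was lower in 7 of 7 Glu-CB1-KO libraries than in every CB1-WT library of that line, while in the GABA-CB1 line the genotypes overlapped.

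Within groups, 2 of 56 sets of libraries (7 genes, 8 groups) had 1 library far from the others by Dixon's criterion, which chance gives in about 1 of 20. Zic1 was at 11.6 CPM in GABA-CB1-WT basal replicate 3, where the next library of the group held 5.82 CPM. Lef1 was at 6.62 CPM in GABA-CB1-WT open field replicate 5, where the next held 5.18 CPM, and the same library had the highest Slc17a6 of its group (19.7 CPM).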

How the results depend on the processing

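The call of Prkcd in the Glu-CB1 line after the open field (-0.576) was lost, leaving 0 genes called, with the subiculum and cortex covariate (-0.498, adjusted p 0.135), in libraries with Xkr4 at or above 15 CPM (-0.560, adjusted p 0.195, 5 libraries) and with the replicate number as a block (-0.530, adjusted p 0.158, 10 libraries), all by edgeR. In the block fit and the Xkr4 fit fewer libraries entered, and the Xkr4 fit held no library of set C. The labels do not say whether replicate numbers pair mice. Same-numbered libraries deviated together (r over 0.1) in 4 of 21 pairs, with r between -0.335 and 0.317. The block changed no other count of called genes among the 7. The difference of Prkcd between lines after the open field lost its call, leaving 0, in the fit of all 48 libraries (-0.619, adjusted p 0.151) and in libraries with Xkr4 at or above 15 CPM (-0.570, adjusted p 0.213); the cause was not tested. Leaving out 1 library in turn left 1 gene called in all 12 fits for the Glu-CB1 line after the open field, with Prkcd between -0.621 and -0.515, and in all 24 fits of the difference between lines, with Prkcd between -0.682 and -0.558. Values that were never called changed sign. For Prkcd in the basal Glu-CB1 line this was with the other 6 genes (0.0875) and the subiculum and cortex list (0.0391) as covariates, and for the open field response in the GABA-CB1 line with the wider thalamic list (0.0333). For the basal difference between lines it was with the number set (0.119), the other 6 genes (0.180), the subiculum and cortex list (0.174) and the limit on Xkr4 (0.0883). Without 1 library the basal effect in the GABA-CB1 line ran from -0.183 to 0.00622 and the basal difference between lines from -0.135 to 0.0593. Of the 21 correlations, 2 passed with group means kept, 1 without TMM, 2 within the Glu-CB1 line, 0 within the GABA-CB1 line and 0 with the first principal component removed. Depth limits Tnnt1 most, at 15 to 60 reads per library.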
